A study of Mus musculus with 6 samples.

Results

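The 9 genes described here carry the insulin signal from the cell surface to the nucleus: the receptor gene Insr, the docking protein genes Irs1 and Irs2, the adaptor gene Grb10, the phosphoinositide 3-kinase subunit gene Pik3r1, the kinase genes Akt1 and Akt2, and the transcription factor genes Foxo1 and Foxo3. They were taken as every probe set of a whole-genome mouse Affymetrix array whose platform annotation gives exactly 1 symbol equal to one of these names. This found 26 probe sets for all 9 genes, of 45101 probe sets and 18194 single-symbol genes on the array. One further probe set carries Foxo3 beside a second symbol and was not used. Liver RNA came from 3 mice whose sphingosine-1-phosphate (S1P) lyase gene, Sgpl1, was knocked out and from 3 wild-type (WT) mice, 1 array per mouse, all of a mixed C57BL6 and 129sv background and with no treatment. S1P lyase irreversibly cleaves the signalling lipid S1P. The knockout is not described as restricted to any cell type, and the labels used here give no age, sex, litter or feeding state. With 3 arrays a group, precision is limited by their number. The main p-values set a difference against the spread between these mice, estimated in part from all tested probe sets.

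Insulin binding activates the tyrosine kinase of its receptor, which phosphorylates the insulin receptor substrates IRS1 and IRS2. These recruit phosphoinositide 3-kinase through its regulatory subunit, the lipid product activates AKT, and AKT phosphorylates FOXO proteins, which keeps them out of the nucleus. In the fasted liver, FOXO1 is nuclear and drives genes such as Igfbp1 and those of glucose production, while after feeding insulin raises the genes of fat synthesis. GRB10 binds the active receptor and dampens its signal.

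Of these genes, Irs1 showed the most extreme difference, with a signal 2.93-fold lower in the knockout livers, while Foxo1 was 2.29-fold higher on its brightest probe set. Insr, Irs2, Foxo3, Akt1, Pik3r1 and Grb10 had no probe set that passed the test, and Akt2 had 1 of 3, which fell. In all, 2 of 24 tested probe sets rose and 2 fell (limma fit over 27002 tested probe sets, called at an adjusted p under 0.05). Over the whole array 10.1% of tested probe sets rose and 7.84% fell, 17.9% together, so the 4 calls in 24 lay near the background and say nothing particular about these genes as a set. The median difference of the 24 was 0.04 log2, against -0.04 over all tested probe sets. Read by the brightest probe set of each gene, 1 of 9 genes rose (Foxo1) and 1 fell (Irs1), where 10.5% and 8.10% of 13364 tested genes did. These values are from whole liver, where fewer cells of a type and less RNA per cell cannot be told apart.

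**Figure D1:**
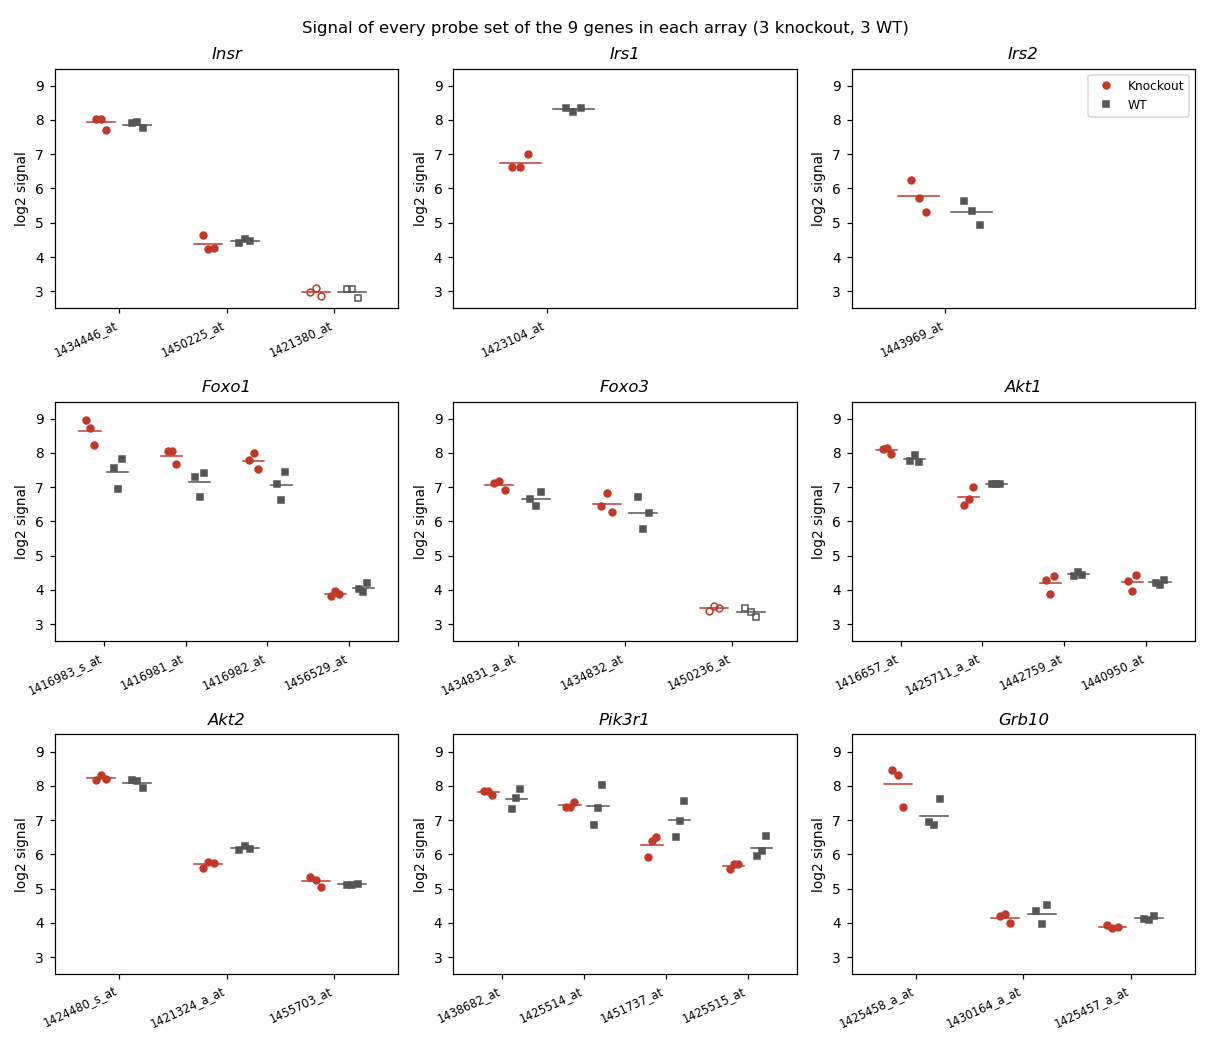
Log2 signal (vertical axis) of all 26 probe sets of the 9 genes in each of 3 knockout livers (red circles) and 3 WT livers (grey squares), with 1 panel per gene and horizontal lines at the group means; open symbols mark the 2 probe sets under the dim level of 3.58 log2. The Irs1 values of the groups stand far apart, at 6.63 to 7.00 in knockout and 8.22 to 8.36 in WT, and the 3 brighter Foxo1 probe sets are higher in every knockout liver than in every WT liver.

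The start regions of Irs1, Irs2 and Foxo1 are shown because Irs1 and Foxo1 carried the called differences by gene and Irs2 is the relative of Irs1. Each window runs from 250 bases before to 50 bases after the annotated start (RefSeq, GRCm38.p6), 5' to 3' on the strand of the gene. Capitals mark matches, on either strand, to the FOXO core GTAAACA, the insulin response core CAAAACA, the STAT palindrome TTCNNNGAA or the E-box CACGTG.
Irs1, chr1:82291390-82291689, minus strand: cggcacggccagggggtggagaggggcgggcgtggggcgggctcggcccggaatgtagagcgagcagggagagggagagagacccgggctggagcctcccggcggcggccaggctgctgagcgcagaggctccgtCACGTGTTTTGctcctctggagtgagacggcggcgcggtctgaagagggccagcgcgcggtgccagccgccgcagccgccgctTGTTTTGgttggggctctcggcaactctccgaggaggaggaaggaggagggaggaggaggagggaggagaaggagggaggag
Irs2, chr8:11008880-11009179, minus strand: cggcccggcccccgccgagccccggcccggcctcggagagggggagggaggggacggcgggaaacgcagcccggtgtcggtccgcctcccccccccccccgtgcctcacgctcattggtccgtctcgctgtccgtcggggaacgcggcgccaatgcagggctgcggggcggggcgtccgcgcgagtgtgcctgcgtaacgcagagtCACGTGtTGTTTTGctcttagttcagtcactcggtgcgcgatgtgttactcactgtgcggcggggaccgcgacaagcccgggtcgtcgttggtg
Foxo1, chr3:52268087-52268386, plus strand: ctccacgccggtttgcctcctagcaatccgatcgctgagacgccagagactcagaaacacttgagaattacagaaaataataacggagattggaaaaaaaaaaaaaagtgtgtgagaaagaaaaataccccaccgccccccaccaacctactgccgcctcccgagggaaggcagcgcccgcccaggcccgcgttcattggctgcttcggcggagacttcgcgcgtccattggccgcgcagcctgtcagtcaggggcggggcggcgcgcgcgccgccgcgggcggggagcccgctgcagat
Irs1 and Irs2 hold the same pair of motifs. In Irs1 the E-box begins at position -115 from the start site and overlaps an insulin response core beginning at -111, and a second core begins at -32. In Irs2 the E-box begins at -44 and the core follows at -37. Among 32851 windows of this length in the table, 7.15% hold the E-box, 6.28% the insulin response core and 0.408% both. The Foxo1 window holds none of the 4 motifs, of which the FOXO core is in 3.65% of all windows and the STAT palindrome in 8.30%. Of the other members, Akt1 has a FOXO core in 1 of its windows and Akt2 a STAT palindrome in 1. The table holds windows for 8 of the 9 genes. These matches describe the letters only, and binding was not measured.

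The arrays were first checked against their labels. Sgpl1 read 2.46, 2.99 and 2.87 log2 in the knockout livers, against 6.65, 6.90 and 6.71 log2 in WT livers on its brighter probe set, with no overlap. Hepatocyte markers dominated both groups, at a mean of 11.99 to 12.06 log2 over 9 genes in knockout and 11.91 to 12.19 log2 in WT, with 0 risen and 2 fallen. Markers of neutrophils were higher in knockout, with 9 of 10 tested genes risen and means of 8.85 to 9.13 log2 against 5.44 to 5.69 log2 in WT, and so were those of B cells, with 5 of 5 tested genes risen and means of 5.61 to 5.95 against 4.28 to 4.33 log2. Markers of Kupffer cells and macrophages spanned 8.07 to 8.19 log2 in knockout and 7.61 to 8.25 log2 in WT, with 4 risen and 3 fallen of 12. Mean marker levels of T and NK, endothelial and erythroid cells were higher in every knockout liver than in every WT liver, by 0.19 to 0.42 log2. Those of stellate, bile duct and fat cells were lower in every knockout liver, by 0.15 to 0.34 log2. The share of all these cells' RNA in the differences below was not tested. The control RNAs added before labelling (poly-A controls) read 0.75 log2 higher in knockout (8.78 against 8.03 in WT), and each of 4 control transcripts had a higher 3' signal, relative to its 5' signal, in knockout, with differences of 1.01 log2 for Pcx, 0.47 for Tfrc, 0.47 for Gapdh and 0.45 for Actb. On each, no knockout array overlapped a WT array (two-sided p = 0.1 by an exact permutation test, which cannot go lower with 3 against 3).

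The receptor gene Insr differed little between the groups. Its brightest probe set read 8.02, 8.04 and 7.72 log2 in the knockout livers, against 7.90, 7.94 and 7.76 log2 in WT livers. The groups overlapped, with a difference of 0.06 log2 (SE 0.13, 95% interval -0.24 to 0.36, limma adjusted p = 0.78). A dimmer Insr probe set, at 4.38 log2 in knockout and 4.47 log2 in WT, differed by -0.09 (SE 0.13, adjusted p = 0.651), and a further one, at 2.99 in knockout and 2.97 in WT, lay below the dim level and was not tested.

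Irs1, the docking protein through which the insulin and insulin-like growth factor receptors recruit phosphoinositide 3-kinase, fell. Its single probe set read 6.64, 6.63 and 7.00 log2 in the knockout livers, against 8.36, 8.22 and 8.35 log2 in WT livers. Every knockout value lay more than 1 log2 unit below every WT value, and the WT livers differed among themselves by 0.14 log2. The means were 6.76 ± 0.21 in knockout and 8.31 ± 0.08 in WT (SD, n = 3 each), a difference of -1.55 log2 (SE 0.14, 95% interval -1.87 to -1.23, limma adjusted p = 0.000384). It was the 128th most negative difference of the 27002 probe sets tested. Irs1 passed in each of 16 alternative analyses, with adjusted p up to 0.00403. The smallest, 1.96e-17, was with arrays centred on the poly-A controls, a scale on which 20390 of all 27002 tested probe sets fell. Leaving out any 1 array gave -1.67 to -1.49 log2 (adjusted p = 0.000471 to 0.00403).

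Irs2, the other docking protein of the liver and the one whose gene insulin represses, had a single probe set and did not pass. It read 6.26, 5.73 and 5.31 log2 in the knockout livers, against 5.64, 5.35 and 4.94 log2 in WT livers. The groups overlapped and both spread widely, by 0.95 log2 in knockout and 0.71 in WT. The difference was 0.46 log2 (SE 0.26, 95% interval -0.14 to 1.06, limma adjusted p = 0.249). Within each array, Irs2 minus Irs1 was -0.38, -0.90 and -1.68 log2 in the knockout livers, against -2.72, -2.87 and -3.41 log2 in WT livers. A shift of all values of an array leaves this quantity unchanged, though quantile normalization can change it. All knockout livers lay above all WT livers, a difference between the groups of 2.01 log2 (two-sided exact permutation p = 0.1, its lower limit here, adjusted over 4 pairs p = 0.133). Leaving out any 1 array gave 1.71 to 2.36 log2. Most of the 2.01 log2 restates the Irs1 difference of -1.55 log2.

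Grb10, the adaptor that dampens the receptor, was higher in 2 of 3 knockout livers. Its bright probe set read 8.47, 8.32 and 7.37 log2 in the knockout livers, against 6.93, 6.85 and 7.61 log2 in WT livers. Knockout replicate 3 lay below WT replicate 3, so the groups overlapped. The difference was 0.92 log2 (SE 0.31, 95% interval 0.21 to 1.63, limma adjusted p = 0.0745) and did not pass. Leaving out knockout replicate 3 gave 1.26 log2 (adjusted p = 0.0141), and leaving out WT replicate 3 gave 1.16 (adjusted p = 0.0407), both past the test. The range over 16 alternatives was 0.0141 to 0.522. The other Grb10 probe sets were dim, at 4.15 and 3.89 log2 in knockout and 4.27 and 4.14 log2 in WT. They differed by -0.12 (SE 0.16) and -0.24 (SE 0.10), with adjusted p of 0.621 and 0.126.

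Pik3r1 encodes the regulatory subunits that hold the catalytic subunit of phosphoinositide 3-kinase and bring it to the docking proteins. Its 4 probe sets differed in sign, and none passed. The brightest read 7.85, 7.86 and 7.74 log2 in the knockout livers, against 7.31, 7.64 and 7.91 log2 in WT livers, which differed by 0.20 (SE 0.16, adjusted p = 0.41 in limma). The next differed by 0.03 (SE 0.26, adjusted p = 0.953). The third read 5.93, 6.38 and 6.50 log2 in the knockout livers, against 6.52, 6.96 and 7.56 log2 in WT livers, a difference of -0.74 (SE 0.27, adjusted p = 0.0894). The fourth read 5.57, 5.72 and 5.72 log2 in the knockout livers, against 5.95, 6.10 and 6.54 log2 in WT livers, a difference of -0.53 (SE 0.17, adjusted p = 0.0635). On the third and the fourth every knockout liver lay below every WT liver. Both passed without WT replicate 1, at -0.99 and -0.65 log2 (adjusted p = 0.0414 and 0.0481). The third passed in 4 and the fourth in 6 of 15 alternatives, for both with quantile normalization and hybridisation controls among them. Over these alternatives adjusted p ran from 1.21e-07 to 0.252 and from 6.31e-06 to 0.177. Both smallest values were with arrays centred on the poly-A controls, a scale on which most tested probe sets fell. WT replicate 3 was the highest array on all 4 Pik3r1 probe sets. The WT spread on the second reached 1.15 log2, against 0.15 in knockout, and its SD of 0.58 was above the 0.16 that is the median WT SD of all tested probe sets.

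Akt2, the AKT isoform that carries much of the insulin signal in liver, fell on 1 of its 3 probe sets. That probe set, whose design class covers more than one transcript of the gene, gave 5.60, 5.79 and 5.74 log2 in the knockout livers, against 6.13, 6.23 and 6.16 log2 in WT livers. The groups were apart, with a difference of -0.46 log2 (SE 0.11, 95% interval -0.73 to -0.20, limma adjusted p = 0.0277). The brightest probe set, of a design class that allows cross-matches to similar genes, gave 8.17, 8.31 and 8.19 log2 in the knockout livers, against 8.18, 8.13 and 7.94 log2 in WT livers, and differed by 0.14 (SE 0.12, adjusted p = 0.44). The third differed by 0.10 (SE 0.12, adjusted p = 0.583). The fallen probe set passed with WT replicate 3 left out (-0.47, adjusted p = 0.0495) and did not pass when any of the other 5 arrays was left out, at -0.50 to -0.41 log2 and adjusted p up to 0.0989. With arrays centred on hepatocyte markers it was at -0.39 and did not pass (adjusted p = 0.185).

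Akt1, the most widely expressed isoform, showed the same split without a call. Its brightest probe set read 8.10, 8.15 and 7.98 log2 in the knockout livers, against 7.77, 7.93 and 7.73 log2 in WT livers. Its second read 6.47, 6.65 and 7.01 log2 in the knockout livers, against 7.09, 7.08 and 7.08 log2 in WT livers. The groups were apart on both, in opposite directions, with differences of 0.27 (SE 0.12, limma adjusted p = 0.145) and -0.37 (SE 0.15, adjusted p = 0.129). The second passed without knockout replicate 3 (-0.52, adjusted p = 0.0381), over alternatives from 6.97e-05 (arrays centred on the poly-A controls) to 0.384. The dim Akt1 probe sets differed by -0.27 (SE 0.15) and 0.02 (SE 0.14). Akt2 minus Akt1 within an array averaged 0.15 log2 in knockout and 0.28 log2 in WT, and the groups overlapped (two-sided exact permutation p = 0.2, n = 3 each).

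Foxo1, the transcription factor through which insulin restrains glucose production, was higher on 3 of its 4 probe sets and rose on 2. The brightest, of the design class that allows cross-matches to similar genes, read 8.97, 8.73 and 8.22 log2 in the knockout livers, against 7.57, 6.94 and 7.82 log2 in WT livers. The groups were apart, though knockout replicate 3 and WT replicate 3 came close to each other. The difference was 1.20 log2 (SE 0.26, 95% interval 0.60 to 1.79, limma adjusted p = 0.0169), the 694th most positive of 27002. The second probe set read 8.05, 8.05 and 7.67 log2 in the knockout livers, against 7.29, 6.72 and 7.40 log2 in WT livers, and rose by 0.78 (SE 0.20, adjusted p = 0.0312). The third was apart too, at 0.71 (SE 0.22), and did not pass (adjusted p = 0.0559). The fourth, a dim one at 3.89 log2 in knockout and 4.06 log2 in WT, differed by -0.17 (SE 0.11, adjusted p = 0.322). The probe sets that are higher in knockout are assigned to the same sequence record, so they are not separate evidence.

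The Foxo1 calls rested on few arrays. The call on the brightest probe set went when knockout replicate 1 (1.03, adjusted p = 0.0662) or 2 (1.15, adjusted p = 0.0672) was left out. For the second probe set, leaving out knockout replicate 1 (0.72, adjusted p = 0.108) or 2 (0.72, adjusted p = 0.11) ended the call, as did leaving out WT replicate 1 (0.86, adjusted p = 0.0542) or 2 (0.58, adjusted p = 0.0654). The third probe set passed once WT replicate 3 was left out (0.90, adjusted p = 0.0234). With arrays centred on the poly-A controls, which places the median of all tested probe sets at -0.79 log2, the 3 were at 0.45, 0.04 and -0.04 log2 and none passed. With a gene read by the mean of its probe sets, no member rose and Irs1 alone fell.

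Foxo3, a relative of Foxo1 with overlapping targets, did not pass. Its brightest probe set read 7.12, 7.17 and 6.93 log2 in the knockout livers, against 6.65, 6.45 and 6.86 log2 in WT livers. The groups were apart by a narrow margin, with a difference of 0.42 log2 (SE 0.14, 95% interval 0.10 to 0.75, limma adjusted p = 0.0745). It passed without WT replicate 3 (0.52, adjusted p = 0.0439), over alternatives from 0.0255 to 0.259. The second probe set differed by 0.26 (SE 0.24, adjusted p = 0.475), and the last one lay below the dim level, at 3.46 log2 in knockout and 3.35 log2 in WT. Foxo3 lies on chromosome 10, as Sgpl1 does, with 79 protein-coding genes between them in the annotation. Foxo3 minus Foxo1 within an array was -1.84, -1.56 and -1.29 log2 in the knockout livers, against -0.92, -0.48 and -0.97 log2 in WT livers. The groups were apart by -0.77 (two-sided exact permutation p = 0.1, adjusted over 4 pairs p = 0.133), or by -0.29 with each gene read by the mean of its probe sets.

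**Figure D2:**
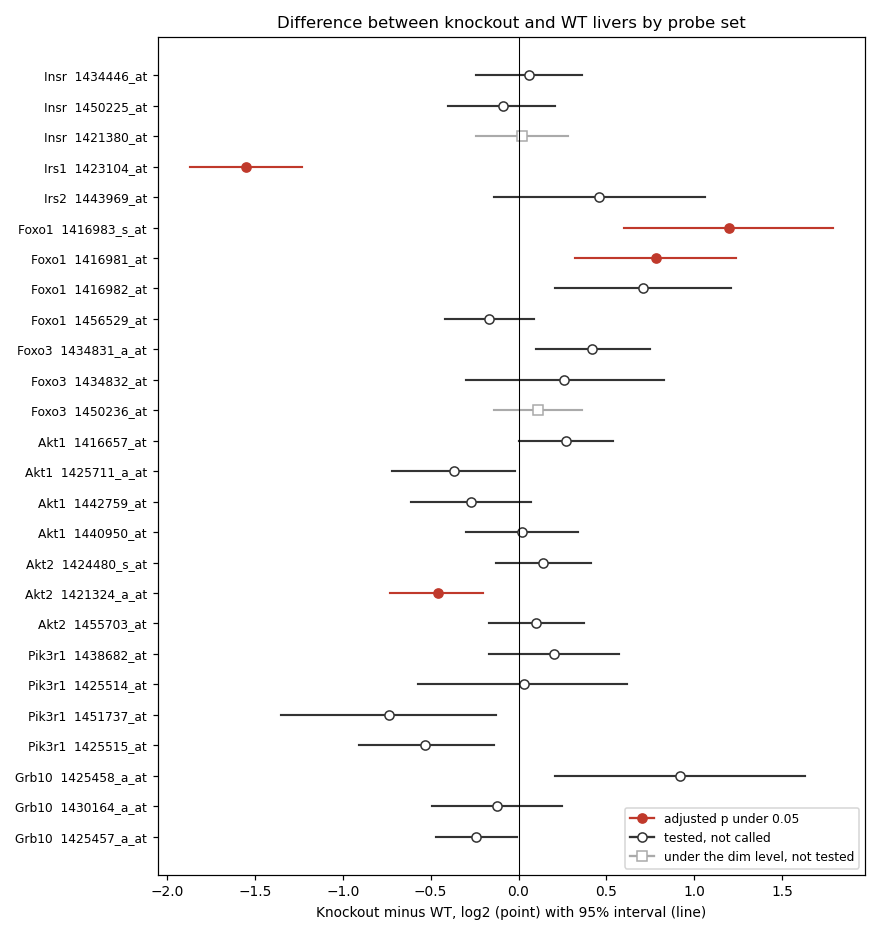
Knockout minus WT difference in log2 (horizontal axis, point) with its 95% interval (line) for each of the 26 probe sets; filled red points passed at adjusted p under 0.05, open points did not, and grey squares are the 2 probe sets under the dim level, from a fit without a filter. Only Irs1 (-1.55), 2 Foxo1 probe sets (1.20 and 0.78) and 1 Akt2 probe set (-0.46) are filled, and probe sets of Insr, Akt1, Akt2, Pik3r1, Foxo1 and Grb10 lie on both sides of 0.

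Probe sets of the same gene thus differed in a regular way. In each of the 7 members with more than 1 tested probe set, the brightest was set against each of the others within the same array. A shift of all values of an array does not change this quantity. Brightest minus other was higher in knockout in 15 of 15 such pairs, by a median of 0.54 log2, and the groups were apart in 10 of them. Over all genes the same held in 59.7% of 9480 pairs, with the groups apart in that direction in 26.2% and a median of 0.09 log2. Pairs of 1 gene share the brightest probe set, so they are not independent of each other. In 1 Foxo1 pair and both Grb10 pairs the other probe set is dim, and the pair mostly restates the difference of the brightest one. The Insr pair and the pairs with the dim Akt1 probe sets also have a dim partner. In Akt2, the brightest minus the fallen probe set was 2.57, 2.52 and 2.45 log2 in the knockout livers, against 2.05, 1.91 and 1.77 log2 in WT livers. In Pik3r1, the brightest minus the fourth was 2.28, 2.14 and 2.02 log2 in the knockout livers, against 1.37, 1.54 and 1.36 log2 in WT livers. The 3' minus 5' values of the control transcripts moved the same way, by 0.45 to 1.01 log2, and among the knockout arrays replicate 3 was the lowest for Actb, Gapdh and Pcx. Where on each transcript the probes lie was not used here, and the part of transcript integrity in these divergences was not tested. Irs1 and Irs2 have 1 probe set each, so no such comparison exists for them.

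**Figure D3:**
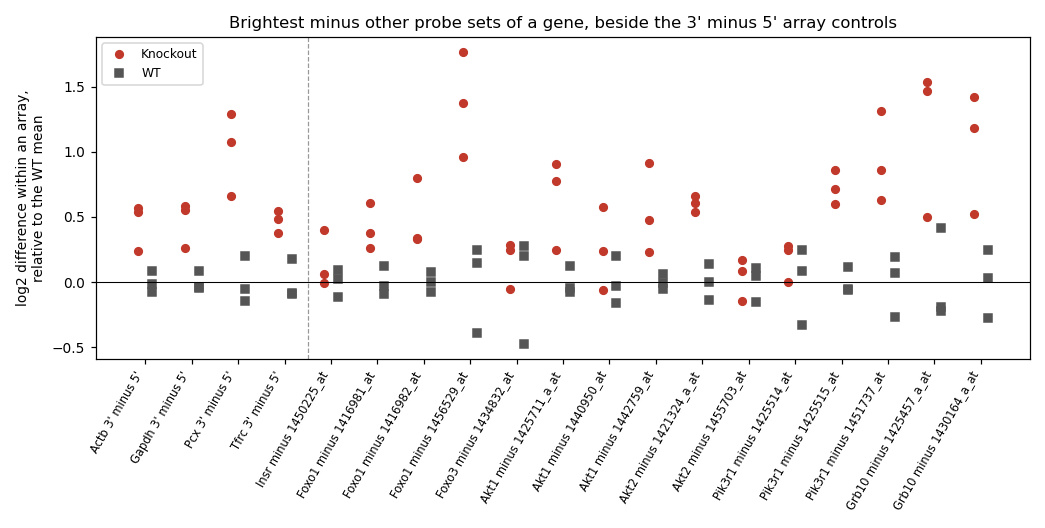
Log2 difference within an array (vertical axis, relative to the WT mean) for the 3' minus 5' values of 4 control transcripts (left of the dashed line) and for the brightest minus each other tested probe set of 7 genes (right), in 3 knockout livers (red circles) and 3 WT livers (grey squares). Knockout values are higher on average in all 4 controls and all 15 pairs, and apart from WT in 10 of the pairs.

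Of all 24 tested member probe sets, 12 had knockout and WT values that did not overlap, 5 with knockout above and 7 with knockout below, where 40% of all tested probe sets did. Over 6 arrays, the genes whose values ran most closely with Irs1 among 13363 others were Lactb (Pearson r = 0.9995) and Pitrm1 (0.9979), with differences of -0.55 and -0.34 log2. For Foxo1 they were Rnf128 (0.9978, difference 0.27 log2) and Ago3 (0.9978, 0.36 log2). For the fallen Akt2 probe set they were Aox3 (0.9989, -1.49 log2) and Abhd11 (0.9965, -0.36 log2). Such correlations share the step between the groups and are given as a description.

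Other genes of the insulin pathway were then read in 6 lists, each gene by its brightest tested probe set. The lists were chosen with earlier results of these data known. Of 120 genes, 108 were tested, and 21 rose and 8 fell, against 10.5% rising and 8.10% falling over all genes. The same shares are the background for the count of each list below. The call of 13 of these 29 genes held whichever single array was left out. Leaving out 1 array gave 12 to 19 rises and 2 to 8 falls, with the fewest rises, 12, without knockout replicate 2 and the fewest falls, 2, without knockout replicate 1. On the scale of the poly-A controls 7 rose and 68 fell. Differences of genes in these lists are subject to the same higher neutrophil and B cell transcripts and 3' to 5' values in the knockout arrays as those above.

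Among adaptors, docking proteins and other genes acting at the receptor, 4 of 18 rose and none fell (median 0.03 log2, against -0.05 over all genes). Cbl, a ubiquitin ligase of receptor tyrosine kinases, rose by 1.28 (SE 0.14, limma adjusted p = 0.00111) and Igf1r, the receptor for insulin-like growth factor 1 and the closest relative of Insr, by 1.04 (SE 0.13, adjusted p = 0.00163). Igf1r read 6.0, 6.25 and 5.93 log2 in the knockout livers, against 5.14, 4.91 and 5.01 log2 in WT livers. Every knockout liver thus lay above every WT liver for Igf1r, unlike for Insr. The other Igf1r probe set was at 0.46 and did not pass (adjusted p = 0.0691). Other Cbl probe sets were at 0.98, which passed (adjusted p = 0.00314), and at -0.11, which did not (adjusted p = 0.707). Gab2, a docking adaptor, rose by 0.85 (SE 0.14) and the docking protein gene Dok1 by 0.45 (SE 0.11). The 2 other Gab2 probe sets did not pass, at -0.16 and 0.07, and by the mean of its probe sets Gab2 was at 0.25 and did not pass (adjusted p = 0.0811). Grb2, which links receptors to the RAS pathway, was at 0.53 (SE 0.16, adjusted p = 0.0561) and passed without WT replicate 3 (0.70, adjusted p = 0.0112). The other Grb2 probe set passed, at 0.62 (adjusted p = 0.00989), as did Grb2 by the mean of its probe sets (0.58, adjusted p = 0.0134). Dok1 kept its call without WT replicate 2 and lost it without each of the other 5 arrays (0.38 to 0.47, adjusted p = 0.0585 to 0.0798), and it was lower, at -0.30, on the scale of the poly-A controls. Grb14, the relative of Grb10 that also restrains the receptor and is named for that pair, was at -0.33 (SE 0.20, adjusted p = 0.28). Grb14 minus Grb10 within an array was -0.32, -0.54 and -0.06 log2 in the knockout livers, against 1.02, 1.26 and 0.56 log2 in WT livers, apart by -1.25 (two-sided exact permutation p = 0.1, adjusted p = 0.133), or by -0.52 with each gene read by the mean of its probe sets.

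Among phosphoinositide 3-kinase subunits, the phosphatases that remove its lipid product and the kinase gene Pdpk1, 4 of 12 rose and 1 fell (median 0.10 log2). Inpp5d, the lipid phosphatase of blood cells, rose by 1.11 (SE 0.15, limma adjusted p = 0.00263), the class II kinase gene Pik3c2a by 0.92 (SE 0.16), the lipid phosphatase gene Inpp4a by 0.68 (SE 0.15) and Pik3cg, the catalytic subunit of leukocytes, by 0.52 (SE 0.14). Pik3c3, the kinase of autophagy and endosomes, fell by 0.37 (SE 0.11). In the limma fit over probe sets used for the members, Pik3c3 did not pass (adjusted p = 0.0558). Inpp5d and Pik3cg are genes of leukocytes, whose neutrophil markers had means of 8.85 to 9.13 log2 in knockout and 5.44 to 5.69 log2 in WT, and their part in these rises was not tested. Inpp4a lost its call without knockout replicate 2 or WT replicate 1 (0.57 and 0.62, adjusted p = 0.0633 and 0.0577), Pik3cg without any array but knockout replicate 1 (0.42 to 0.59, adjusted p = 0.0506 to 0.103) and Pik3c3 without any 1 array (-0.40 to -0.32, adjusted p = 0.0858 to 0.152). The other probe sets of Inpp5d, Pik3c2a and Inpp4a did not pass, at 0.34, -0.10 and 0.13 (adjusted p = 0.0822, 0.597 and 0.522). By the mean of its probe sets Inpp4a was at 0.40 (adjusted p = 0.0501) and Pik3c2a at 0.41 (adjusted p = 0.0436). Inpp4a and Pik3cg were lower, at -0.07 and -0.22, on the scale of the poly-A controls. Pik3ca, a catalytic subunit named after its value was seen, was at 0.17 (SE 0.12, adjusted p = 0.339).

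In the AKT and mTOR branch, 2 of 24 rose and 3 fell (median -0.11 log2). Rheb, the GTPase that activates mTORC1, fell by 0.64 (SE 0.14, limma adjusted p = 0.0152), Deptor, which binds and inhibits mTOR, by 0.82 (SE 0.20, adjusted p = 0.0288) and Tsc2, which switches Rheb off, by 0.47 (SE 0.11, adjusted p = 0.0249). Of 5 tested Deptor probe sets, 4 passed, with differences from -1.60 to -0.78. Phlpp2, a phosphatase of AKT, rose by 0.46 (SE 0.12) and Rictor, a subunit of mTORC2, by 0.56 (SE 0.16, adjusted p = 0.0491), and both were below 0, at -0.29 and -0.19, on the scale of the poly-A controls. By the mean of their probe sets they were at 0.14 and 0.27 and did not pass (adjusted p = 0.414 and 0.177). In the fit over probe sets used for the members, Rictor did not pass (adjusted p = 0.0507). No gene of this list held its call without each single array. Rheb lost it without either of knockout replicates 1 and 2 (-0.65 to -0.53, adjusted p = 0.0512 to 0.0569), Deptor without knockout replicate 1 or either of WT replicates 1 and 2 (-0.92 to -0.77, adjusted p = 0.0527 to 0.0833) and Tsc2 without either of knockout replicates 1 and 2 or of WT replicates 1 and 3 (-0.46 to -0.43, adjusted p = 0.0561 to 0.089). Phlpp2 kept it only without WT replicate 1 (otherwise 0.37 to 0.48, adjusted p = 0.0701 to 0.0915) and Rictor only without knockout replicate 1 (otherwise 0.42 to 0.59, adjusted p = 0.0707 to 0.14).

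Among genes that restrain the insulin signal, 4 of 19 rose and 1 fell (median 0.10 log2). Socs3, a suppressor induced by interleukin 6 that targets the receptor and the docking proteins, read 6.81, 6.57 and 7.29 log2 in the knockout livers, against 4.55, 4.71 and 5.08 log2 in WT livers, and rose 4.31-fold (2.11 log2, SE 0.21, limma adjusted p = 0.000688). Its 2 other tested probe sets passed as well, at 1.28 and 0.79. The probe sets at 2.11 and 1.28 are of a design class that allows cross-matches to other sequences, and the one at 0.79 is not. Ptpn1, the phosphatase that removes phosphate from the insulin receptor, read 8.21, 8.20 and 8.25 log2 in the knockout livers, against 6.53, 6.82 and 6.74 log2 in WT livers, and rose 2.87-fold (1.52 log2, SE 0.12, adjusted p = 0.000204). On these brightest probe sets, both genes were apart by more than 1 log2 unit between every knockout and every WT liver. The other Ptpn1 probe set rose by less, at 0.55 (adjusted p = 0.0236), and by the mean of its probe sets Ptpn1 was at 1.04. The kinase gene Prkcd rose by 1.01 (SE 0.17) and the phosphatase gene Ptpn2 by 0.61 (SE 0.12), though Ptpn2 was lower, at -0.14, on the scale of the poly-A controls. Ide, the insulin-degrading enzyme, fell by 0.55 (SE 0.13), a call that ended without either of knockout replicates 1 and 2 or of WT replicates 1 and 3 (-0.57 to -0.47, adjusted p = 0.0525 to 0.0833). Of the other Ide probe sets, those at -0.70 and -1.46 passed and those at 0.04 and -0.04 did not. The other 14 genes of the list did not pass.

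Of genes known as FOXO targets, 7 of 24 rose and none fell (median 0.43 log2). Over all genes 10.5% rose and 8.10% fell. Leaving out 1 array gave 3 to 8 rises, and on the scale of the poly-A controls 4 rose and 8 fell. Cdkn1a, a cell cycle inhibitor that p53 also induces, rose 7.33-fold (2.87 log2, SE 0.28, limma adjusted p = 0.000591). Ccng2, a cyclin-like inhibitor of growth, rose by 1.81 (SE 0.36), Pdk4, which blocks pyruvate oxidation in fasting, by 1.24 (SE 0.30), Angptl4, a lipase inhibitor of fasting, by 0.94 (SE 0.19) and Bcl2l11, a cell death gene, by 0.91 (SE 0.17). The 2 others that rose were Igfbp1 and Ppargc1a, named after their values were seen. Igfbp1, which insulin represses through FOXO1, read 12.76, 12.72 and 11.55 log2 in the knockout livers, against 11.35, 10.10 and 9.42 log2 in WT livers (2.05 log2, SE 0.50, adjusted p = 0.0253). Ppargc1a, a coactivator of glucose production, read 8.35, 7.57 and 6.56 log2 in the knockout livers, against 6.08, 5.11 and 6.32 log2 in WT livers (1.66 log2, SE 0.46, adjusted p = 0.0417). Knockout replicate 3 was the lowest knockout liver for both, as it was for Foxo1 and Grb10. The glucose production genes G6pc and Pck1, also named after their values were seen, did not pass, at -1.14 (SE 0.71, adjusted p = 0.29) and 0.21 (SE 0.22, adjusted p = 0.527).

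Several of these calls depended on single arrays. Igfbp1 no longer passed without either of knockout replicates 1 and 2 or of WT replicates 2 and 3 (1.62 to 1.96, adjusted p = 0.0507 to 0.0967), and Ppargc1a without either of knockout replicates 1 and 2 or of WT replicates 1 and 2 (1.23 to 1.78, adjusted p = 0.0803 to 0.123). Pdk4 lost it without knockout replicate 2 or WT replicate 1 or 2 (1.08 to 1.33, adjusted p = 0.064 to 0.0709), Angptl4 without knockout replicate 1 or 2 (0.83 to 0.87, adjusted p = 0.0544 to 0.0583) and Ccng2 without knockout replicate 2 (1.57, adjusted p = 0.053). Cdkn1a and Bcl2l11 kept theirs without each single array. The 2 other Bcl2l11 probe sets did not pass, however, at 0.33 and 0.11 (adjusted p = 0.202 and 0.521). Bcl2l11 itself did not pass by the mean of its probe sets (0.45, adjusted p = 0.0504) or on the scale of the poly-A controls (0.17, adjusted p = 0.536).

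Of genes that insulin induces for fat synthesis, 3 of 11 fell and none rose (median -1.28 log2), where 8.10% of all genes fell and 10.5% rose. Thrsp, which promotes fatty acid synthesis, fell by 3.71 (SE 0.49, limma adjusted p = 0.00221), the carbohydrate-responsive factor gene Mlxipl by 1.28 (SE 0.24, adjusted p = 0.00979) and malic enzyme Me1 was lower, at -2.17 (SE 0.54, adjusted p = 0.0292). Srebf1, the factor through which insulin induces these genes, read 9.72, 9.97 and 9.86 log2 in the knockout livers, against 10.15, 11.20 and 10.39 log2 in WT livers, and its difference of -0.73 (SE 0.25) did not pass (adjusted p = 0.0764). Insig1, a target of SREBP that holds it in check, was at -0.76 (SE 0.25, adjusted p = 0.0657). WT replicate 2 was the highest WT liver for 10 of the 11 genes. Without it Me1 was at -1.48 (adjusted p = 0.0147), Mlxipl at -0.99 (adjusted p = 0.00749), Srebf1 at -0.42 (adjusted p = 0.0892) and Insig1 at -0.66 (adjusted p = 0.159). Without WT replicate 1, Srebf1 and Insig1 passed (-0.95 and -1.02, adjusted p = 0.0448 and 0.0206) and Me1 was at -2.73. Me1 did not pass without either of knockout replicates 1 and 2 (-2.04 and -2.12, adjusted p = 0.0966 and 0.0963). The other Me1 probe set was at -1.60 and did not pass (adjusted p = 0.0687). The number of falls was 2 without knockout replicate 1 or 2, 7 without WT replicate 1, 5 without WT replicate 2 and 3 without either of the others.

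**Figure D4:**
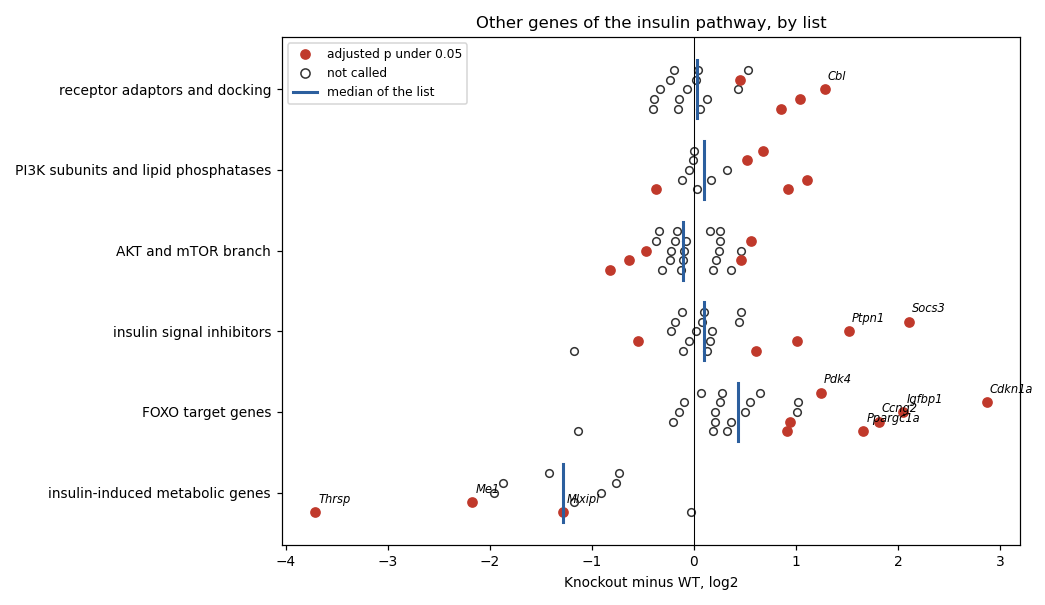
Knockout minus WT difference in log2 (horizontal axis) of the 108 tested genes of 6 lists of the insulin pathway (vertical axis; height within a list only separates points). Filled red points passed at adjusted p under 0.05, open points did not, and blue bars are list medians, which lie between -0.11 and 0.43 log2 in 5 lists and at -1.28 log2 for the genes that insulin induces.

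The differences above depend on the scale of the arrays. Quantile normalization and centring on medians or hepatocyte markers moved the members' differences by at most 0.08 log2. Centring on hybridisation controls, added after labelling, placed the median of all probe sets at -0.23 log2, and centring on poly-A controls placed it at -0.79 log2. On this last scale 0 member probe sets rose and 16 of 24 fell, as 20390 of all 27002 did. Irs1 was negative and past the test on each of these scales, at -2.30 to -1.47 log2, and the brightest Foxo1 probe set was positive on each, at 0.45 to 1.27 log2, without passing on that of the poly-A controls.

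**Figure D5:**
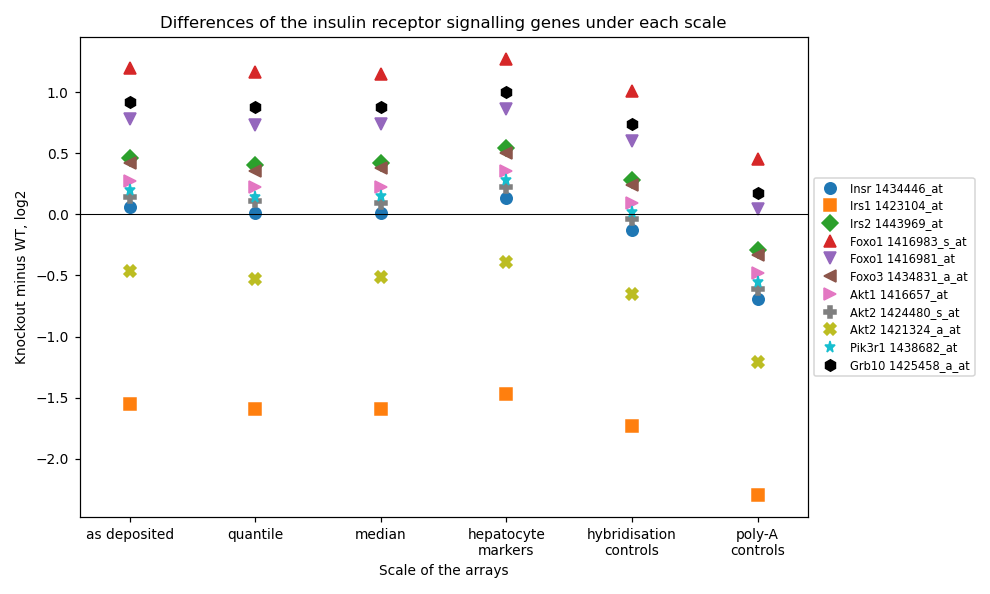
Knockout minus WT difference in log2 (vertical axis) of the brightest probe set of each of the 9 genes and of the 2 other called probe sets, under 6 scales of the arrays (horizontal axis). Irs1 lies lowest on each, at -1.55 as deposited and -2.30 on the poly-A controls, and the brightest Foxo1 probe set highest, at 1.20 and 0.45, while most others cross 0 on the poly-A controls.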

How the data were processed

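Liver RNA of 3 knockout and 3 WT mice was extracted with TRIzol, labelled with biotin and hybridised to 1 array per mouse, per the labels' protocols. The authors deposited 1 log2 value for each probe set on each array, a base settled here from the range of the values. The submitters' processing notes name MAS5 and say neither its version nor what it was used for. The sources used here do not say how background, scale and summary values were made. Detection calls were not used, so dim signal and background are not separated, and fold changes of dim genes may be understated. Replicate numbers only name the mice.

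Of 45101 probe sets, 64 are array controls, 34958 have exactly 1 symbol in the platform annotation, 932 several and 9211 none listed. Left out were the controls and the probe sets with a mean below 3.58 log2, the 40th percentile over all of them, leaving 27002 probe sets, or 13364 genes by their brightest one. Knockout and WT were tested two-sided in R 4.3.3 by limma 3.58.1 (lmFit, then eBayes with trend) on the values as deposited, with Benjamini-Hochberg adjustment over all tested probe sets or genes; "rose" and "fell" mean adjusted p under 0.05. Intervals are limma's 95% intervals. The fit was tested on simulated data. Single values were compared with an exact permutation test. Annotation symbols were matched to GRCm38.p6 by gene identifier for 34754 probe sets, for names and gene order only.

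The members and lists were chosen with earlier results of these data known. Named are all members, Sgpl1, up to 5 genes with the smallest adjusted p of each of 6 lists, the 2 genes most alike to each called member, Grb14 as the relative of Grb10, and others as marked. Settings tried were quantile normalization, no filter, the 60th percentile as filter, centring on medians, poly-A controls (24 probe sets), hybridisation controls (18) or hepatocyte markers (9), array quality weights, no trend, a gene's probe sets averaged, adjustment over genes, and leaving out each array. Marker lists of T and NK, endothelial, stellate, bile duct, erythroid, fat, pancreas and muscle cells were also read; their mean levels differed by -0.39 to 0.42 log2.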

Additional observations from a re-analysis of the deposited data

How the results depend on the processing

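Of the members' called values, the Irs1 fall kept its direction and its call under all 16 alternatives, and the Foxo1 rises and the Akt2 fall kept their direction under all run. As deposited 2 member probe sets rose and 2 fell. There were 4 falls with quantile normalization or hybridisation controls, 4 rises and 1 fall with hepatocyte markers, 5 rises with array quality weights, and 0 rises and 16 falls with poly-A controls. Leaving out 1 array gave 0 to 5 rises and 1 to 3 falls. By gene, 1 member rose and 1 fell; rises were 2 with hepatocyte markers, 3 with array quality weights, 0 with the mean of probe sets, 0 (and 4 falls) with poly-A controls, and 0 to 3, always with 1 fall, without 1 array. In the pathway lists, 21 rises and 8 falls became 7 and 68 with poly-A controls; falls were 4 with hepatocyte markers, 17 with hybridisation controls and 14 with array quality weights. Without 1 array there were 12 to 19 rises and 2 to 8 falls. Over all probe sets, 2721 rises and 2116 falls became 619 and 20390 with poly-A controls and 1663 and 4106 with hybridisation controls, and falls were 1085 with hepatocyte markers. Rises ran from 1471 to 2813 and falls from 993 to 1826 without 1 array. The cause was not tested.

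The sign turned in these values. Among members, no probe set whose sign turned had passed as deposited. With poly-A controls Insr was at -0.69, Irs2 at -0.29, the third Foxo1 probe set at -0.04 and Foxo3 at -0.33 and -0.48. On that scale Akt1 was at -0.48 and -0.73, Akt2 at -0.61 and -0.65 and Pik3r1 at -0.55 and -0.72. Insr, Akt1 at -0.73 and both Akt2 and both Pik3r1 values passed there as falls (limma adjusted p = 0.0051 to 0.0396). Of pathway genes that rose as deposited, Dok1 was then at -0.30, Inpp4a at -0.07, Pik3cg at -0.22, Phlpp2 at -0.29, Rictor at -0.19 and Ptpn2 at -0.14, and Grb2, which did not pass, at -0.22. With hybridisation controls, Insr was at -0.13, the dim Akt1 probe set at -0.17, Akt2 at -0.04 and -0.08 and the second Pik3r1 probe set at -0.16. The dim Akt1 probe set was at -0.03 with median centring and at -0.09 to 0.14 without 1 array. The second Pik3r1 probe set was at -0.04 with quantiles, -0.02 with medians and -0.25 to 0.33 without 1 array. A dim Grb10 probe set was at 0.02 with array quality weights. Akt2 minus Akt1 was 0.01 by the means of probe sets.

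No paired analysis was possible because the labels number the mice without linking knockout and WT animals.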
